A study of Mus musculus with 41 samples.

Results

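Mitochondrial ribosomal protein genes were chosen by name, as every gene with a protein-coding transcript whose symbol begins with Mrpl or Mrps and a number, which gave 78 of the 55385 genes with RNA values. All 78 were also in the ribosome footprint table of 22438 genes, and they had 343 of the 142552 annotated transcripts. Of these genes, 51 encode proteins of the large subunit of the mitochondrial ribosome and 26 encode proteins of its small subunit. The remaining gene, Mrps36, keeps its ribosomal name but encodes a subunit of the alpha-ketoglutarate dehydrogenase complex. Among the ribosomal members, 46 have a counterpart in the bacterial ribosome and 31 are found only in mitochondrial ribosomes.

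The mitochondrial ribosome, or mitoribosome, translates the few proteins that the mitochondrial genome encodes, all of them subunits of the oxidative phosphorylation complexes. Its RNA is made inside the organelle, whereas all of its proteins are encoded in the nucleus, translated by cytosolic ribosomes and imported. The genes examined here are therefore messages read by the cytosolic ribosomes that HBS1L and PELO act on. HBS1L and PELO form the complex that splits ribosomes stalled on an mRNA, and UPF2 is a core factor of nonsense-mediated decay (NMD), which degrades mRNAs with a premature stop codon.

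Ribosome footprints, the mRNA pieces protected by a translating ribosome, were sequenced from whole embryos at embryonic day 8.5, from cerebella at postnatal day 14 and from mouse embryonic fibroblasts (MEFs), with 3 libraries in each group. The Hbs1l -/- embryos and their Wildtype controls were of the strain C57BL/6NJ, and 5 embryos were pooled for each library. The cerebella were of the strain C57BL/6J with the genotypes Atoh-Cre;Hbs1l cKO and Atoh-Cre;Hbs1l +/+, each library coming from 1 cerebellum. Atoh1-Cre acts in the granule cell lineage, so the other cells of those cerebella keep Hbs1l. MEFs of the strain C57BL/6 carried CAG-Cre ER, a Cre recombinase that tamoxifen activates in all cells, and both mutant and control cultures received tamoxifen. They carried Hbs1l cKO, Pelo cKO or Upf2 cKO, and each mutant was sequenced in a batch with 3 control libraries of cells with CAG-Cre ER alone. Before tamoxifen, the study gives the Hbs1l cKO MEFs as fl/- and the Pelo and Upf2 cKO MEFs as fl/fl. RNA of MEFs was sequenced in a single batch, with 3 libraries each of control, Hbs1l cKO and Upf2 cKO cells and 2 of Pelo cKO cells, after the authors excluded another. According to the methods of the study, mutant cerebella and the MEFs of each genotype were homozygous for the B6J mutation of the tRNA gene n-Tr20, and the embryonic Hbs1l line had been crossed to mice with that mutation. The mutant embryos and MEFs are called Hbs1l-/- and Pelo-/- below. Each MEF library came from a single embryo.

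Footprint libraries held 2634480 to 25607974 counts and RNA libraries 22713643 to 86425762 estimated counts. Footprints on Hbs1l were 1.51 to 2.58 CPM, counts scaled to a common library size, in Hbs1l-/- MEFs and 32.5 to 38.0 CPM in their controls, and footprints on Pelo were 2.03 to 2.93 CPM in Pelo-/- MEFs and 31.7 to 37.1 CPM in theirs. Hbs1l footprints also fell in the mutant embryos, to 2.53 to 8.84 CPM from 48.7 to 57.7 CPM, and in the mutant cerebella, to 13.2 to 15.8 CPM from 35.5 to 43.8 CPM. Upf2 went against its label. Upf2 footprints were 114 to 118 CPM in the libraries labelled Upf2 cKO and 47.0 to 57.8 CPM in their controls, and Upf2 RNA was 8.61 to 20.6 against 3.82 to 5.63 TPM, a unit scaled to transcript length and library size, so these samples are called the libraries labelled Upf2 and every direction drawn from them carries that limit. Gene totals include exons that a deletion may leave, and the deleted exons were not measured apart. In the same libraries 14.7% of all transcripts annotated as NMD targets were higher and 0.102% lower, against 0.261% higher in Hbs1l-/- and 0.139% in Pelo-/- MEFs. Control MEF footprint libraries with the same number in different batches differed by little more than counting noise, with chi-square per degree of freedom of 1.10 to 1.19, against 4.06 to 12.6 between different numbers of a batch. The 3 footprint comparisons in MEFs therefore do not have independent controls, and the 3 RNA comparisons share 1 set of controls. Summed fibroblast markers, 6 of 6 detected, were 17885 to 18202 footprint CPM in control MEFs and 20938 to 29015 CPM over the 3 mutants, while the 4 chondrocyte markers summed to 472 to 619 CPM over the controls, 227 to 384 CPM in Hbs1l-/-, 48.2 to 128 CPM in Pelo-/- and 247 to 431 CPM in the libraries labelled Upf2. The 5 macrophage markers summed to 90.6 to 126 CPM over the controls and to 162 to 219, 345 to 501 and 123 to 158 CPM in these 3 mutants, and the 4 endothelial markers to 20.04 to 28.5 CPM and to 5.74 to 7.73, 6.00 to 8.63 and 5.77 to 9.34 CPM. In RNA the chondrocyte markers summed to 33.0 to 49.1 TPM in controls and to 15.8 to 33.1, 47.5 to 48.6 and 25.4 to 40.7 TPM in Hbs1l-/-, Pelo-/- and the libraries labelled Upf2, so Pelo-/- RNA lay within the control range. The macrophage markers summed to 53.1 to 84.6 TPM and to 102 to 136, 87.6 to 134 and 48.1 to 109 TPM, the endothelial markers to 12.98 to 17.2 TPM and to 5.19 to 6.24, 10.8 to 13.09 and 7.86 to 14.1 TPM, and the fibroblast markers to 693 to 1262 TPM and to 1218 to 2090, 1578 to 1713 and 793 to 1033 TPM. All markers of these 4 lists were detected in each MEF group. The part of these marker differences in the results below was not tested, and in bulk samples fewer cells of a type and less RNA per cell cannot be told apart.

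Members differed widely in level. The genes described most closely below are listed in the annotation as ENSMUSG00000029486.13 (Mrpl1), ENSMUSG00000016833.14 (Mrps18c), ENSMUSG00000037531.8 (Mrpl47), ENSMUSG00000028140.13 (Mrpl9), ENSMUSG00000007338.10 (Mrpl49), ENSMUSG00000039680.10 (Mrps6) and ENSMUSG00000041632.7 (Mrps27). In control MEFs the median member had 51.0 TPM. The lowest members were Mrpl23 at 4.77 TPM, Mrpl1 at 6.39 TPM and Mrpl50 at 13.4 TPM, and the highest were Mrpl52 at 241 TPM, Mrpl17 at 208 TPM and Mrps21 at 206 TPM. In footprints per kilobase of coding sequence, scaled to library size, the highest member was Mrpl20 in embryos, at 503, and in cerebella, at 257. Mrpl20 encodes a large-subunit protein with a bacterial counterpart. Mrpl23, Mrps36 and Mrpl48 were the 3 lowest members in every footprint group. Of the 30-base stretches of their coding sequences, 80.5% (Mrpl23), 100% (Mrps36) and 57.6% (Mrpl48) are also in transcripts of other annotated genes, led by the processed pseudogenes Mrpl23-ps1, Mrps36-ps1 and Mrpl48-ps, so reads may be divided and their values are uncertain. The same holds for the 12 members with more than 50% of their stretches in another gene, among them Mrps33 (89.6%), and in part for Mrps18c (49.5%), Mrpl42 (46.9%), Mrps6 (45.4%) and Mrps21 (44.4%), whereas 45 members, with Mrpl1, Mrpl9, Mrpl49 and Mrps27 among them, share none. The order of members by footprint level was similar between tissues, with Spearman correlations of 0.82 to 0.89 over the 78 members, and less alike between footprints and RNA of control MEFs, at 0.51 to 0.53. These correlations are across genes, which share libraries and are not independent replicates.

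Footprints on the 78 members made up 0.661% ± 0.035 (SD, n = 3) of all footprint counts in control embryos, 0.368% ± 0.030 in control cerebella and between 0.301% and 0.303% in the controls of the 3 MEF batches. The share in Hbs1l-/- embryos was 0.583% ± 0.047 and in Hbs1l cKO cerebella 0.386% ± 0.028, in both cases n = 3. In mutant MEFs the shares were 0.310% ± 0.0040 for Hbs1l-/-, 0.332% ± 0.0015 for Pelo-/- and 0.318% ± 0.0058 for the libraries labelled Upf2. Summed RNA of the members was 4772 TPM ± 308 (n = 3) in control MEFs, 5192 ± 135 in Hbs1l-/- (n = 3), 4280 ± 141 in Pelo-/- (n = 2) and 4903 ± 175 in the libraries labelled Upf2 (n = 3).

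Because the members are dispersed over the genome and serve 1 particle, the letters around their start sites are of interest. RefSeq promoter windows, from 250 bases before to 50 bases after the start site, were available for 69 of the 78 members. The letters CCGGAAG, bound by ETS factors such as GABPA (also called NRF-2), were found on either strand in 26 of the 69 members (37.7%) and in 9.93% of 27025 genes. AAGATGGC, a YY1 motif, was in 12 members (17.4%) and in 3.19% of all genes. TATAAA was in 5 members (7.25%) against 15.7% of genes. A match describes letters and is no evidence of binding. The windows of 3 members whose RNA changed in MEFs are shown to place CCGGAAG and AAGATGGC, in capitals. The member's transcription reads left to right (RefSeq, GRCm38.p6). CTTCCGG is CCGGAAG on the opposite strand. The Mrps18c window is chr5:100798509-100798808 on the plus strand, the Mrpl42 window is chr10:95501900-95502199 on the minus strand and the Mrps27 window is chr13:99344536-99344835 on the plus strand.
Mrps18c: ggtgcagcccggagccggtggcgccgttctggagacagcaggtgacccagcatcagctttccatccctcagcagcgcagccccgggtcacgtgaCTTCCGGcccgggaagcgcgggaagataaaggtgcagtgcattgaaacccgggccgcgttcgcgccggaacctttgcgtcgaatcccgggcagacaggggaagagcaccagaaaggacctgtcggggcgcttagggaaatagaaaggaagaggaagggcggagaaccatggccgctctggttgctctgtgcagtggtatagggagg
Mrpl42: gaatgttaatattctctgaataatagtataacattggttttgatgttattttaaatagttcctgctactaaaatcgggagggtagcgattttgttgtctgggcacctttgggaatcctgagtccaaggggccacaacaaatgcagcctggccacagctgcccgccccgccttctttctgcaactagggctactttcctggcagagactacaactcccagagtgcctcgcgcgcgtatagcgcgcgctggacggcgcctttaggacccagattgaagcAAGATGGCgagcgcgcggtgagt
Mrps27: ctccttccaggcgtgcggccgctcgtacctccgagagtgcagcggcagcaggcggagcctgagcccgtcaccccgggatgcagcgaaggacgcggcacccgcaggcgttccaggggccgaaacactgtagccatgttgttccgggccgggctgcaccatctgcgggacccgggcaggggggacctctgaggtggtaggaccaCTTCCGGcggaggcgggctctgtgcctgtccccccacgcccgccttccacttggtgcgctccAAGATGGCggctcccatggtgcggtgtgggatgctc
In Mrpl42 and Mrps27 the AAGATGGC letters lay near the end of the window, past the annotated start and within the first 50 bases of the transcript, and in Mrps27 they followed a CTTCCGG. Among members with a window, CCGGAAG was in 7 of the 22 whose RNA fell in Pelo-/- MEFs and in 19 of the other 47. AAGATGGC was in 3 and 9 of these and TATAAA in 0 and 5, with no test of the differences.

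The comparison of Pelo-/- with control MEFs asked how loss of PELO moved the messages of the mitoribosome. RNA of 24 of the 78 members fell and RNA of 0 rose at an adjusted p of at most 0.05 (edgeR quasi-likelihood test, Benjamini-Hochberg adjustment over all 14705 genes tested), beside 16.6% of all genes lower and 15.5% higher. At an unadjusted p under 0.05 there were 43 members (55.1%), against 44.4% of all genes, 12 members had a positive fold change, and the median member had a log2 fold change of -0.26, against -0.01 for all genes. DESeq2, run as an alternative, called 25 members lower and 1 higher.
The largest fall was that of Mrpl1 (chr5:96209493-96266727 of GRCm38, plus strand), which encodes uL1m, the protein of the mobile L1 stalk where used tRNAs leave the ribosome. Mrpl1 RNA was at 3.403 and 3.08 CPM in Pelo-/- MEFs and at 10.02, 12.4 and 11.4 CPM in control MEFs. The groups were well apart, with a log2 fold change of -1.80 (SE 0.15, edgeR adjusted p = 0.000751).
Mrps18c (chr5:100798627-100804471, plus strand), 1 of several mitochondrial paralogs of bacterial S18, was at 6.70 and 7.19 CPM in the mutant and at 18.2, 16.9 and 16.8 CPM in controls. Mrpl47 (chr3:32725397-32737605, minus strand), which encodes uL29m at the peptide exit tunnel, was at 6.44 and 6.5 CPM and at 16.0, 16.0 and 16.1 CPM. Both fell by 1.31 on the log2 scale (SE 0.11 and 0.10, edgeR adjusted p = 0.000797 and 0.000718), with a spread among libraries far smaller than the difference. Ndufb5 and Actl6a overlap Mrpl47 on the opposite strand. Ndufb5 RNA also fell (-0.60, edgeR adjusted p = 0.00574) and Actl6a RNA did not pass (0.12, edgeR adjusted p = 0.313). The division of reads among these genes was not tested.
Mrpl13 (chr15:55534094-55557748, minus strand), encoding uL13m, was at 17.6 and 19.5 CPM in the mutant and at 44.2, 39.4 and 44.9 CPM in controls. Mrpl42 (chr10:95480805-95501940, minus strand), encoding mL42, which has no bacterial counterpart, was at 18.4 and 15.2 CPM and at 30.1, 30.8 and 34.9 CPM. Mrpl13 fell by 1.21 on the log2 scale (SE 0.11, edgeR adjusted p = 0.000878) and Mrpl42 by 0.93 (SE 0.13, edgeR adjusted p = 0.00289), and neither gene had overlapping groups.
Large-subunit genes fell in 15 of 51 cases and small-subunit genes in 8 of 26, with median log2 fold changes of -0.27 and -0.22. By ancestry, 20 of the 46 members with a bacterial counterpart fell and 3 of the 31 found only in mitochondria, with medians of -0.28 and -0.22. The count of 24 rested on few libraries: it was 8 without the first and 9 without the second Pelo-/- library, where the remaining one is assumed to vary as the controls do, and between 16 and 36 without a control library, the 16 coming with 1 higher member where control 3 was left out. It was 36 without control 2 and 16 without control 1. Mrpl1, Mrps18c, Mrpl47, Mrpl13 and Mrpl42 passed the threshold in each of these 5 fits.

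**Figure D1:**
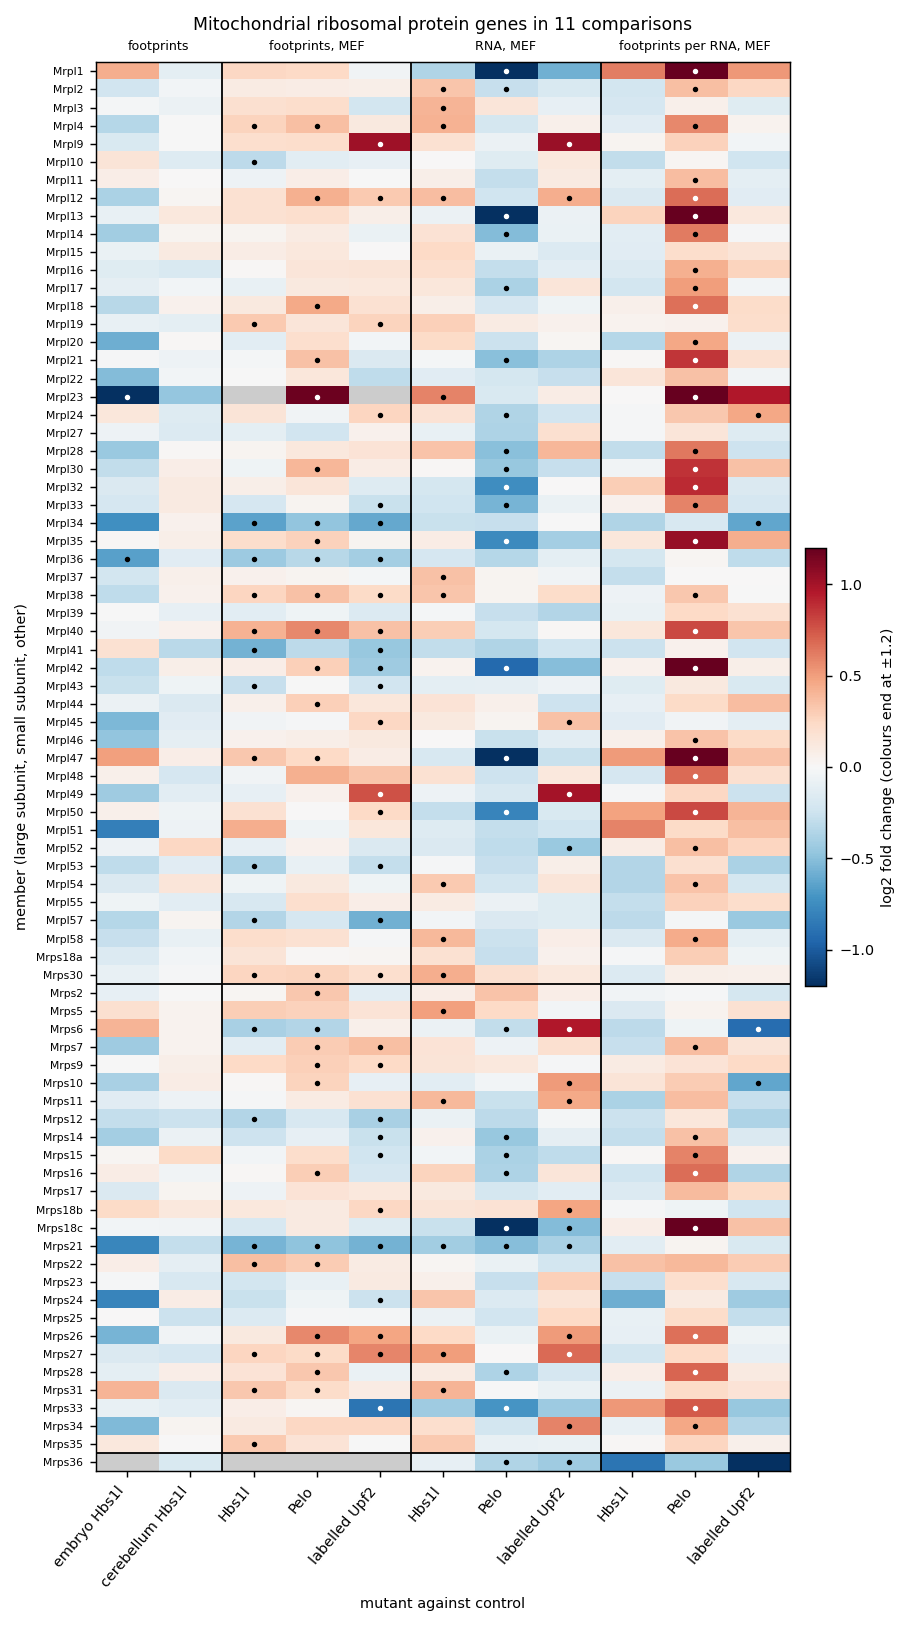
Log2 fold changes of the 78 members (vertical axis, genes by subunit) in 11 comparisons (horizontal axis), coloured from blue (lower in the mutant) to red (higher), with colours ending at the limits of the scale, grey for members not tested and dots for adjusted p at most 0.05. The Pelo-/- RNA column holds 24 dots, all on lower members, and the column of footprints per RNA in the same cells holds 37, all on higher members.

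Footprints on most of the same messages did not follow their RNA down, with Mrps21 and Mrps6 called lower in both. In Pelo-/- MEFs footprints on 23 of 77 tested members rose and on 4 fell, beside 22.9% of all genes higher and 21.2% lower, so the share of members higher was 29.9% and the share lower 5.19%. The median log2 fold change was 0.14 and 58 members were positive, against a median of 0.00 for all genes.
The members whose RNA fell most had footprints at or above control level. Footprints on Mrpl1 were at 37.6, 36 and 33.8 CPM in Pelo-/- and at 31.2, 27.8 and 32.1 CPM in control MEFs, all mutant libraries lying above all controls, with a log2 fold change of 0.24 that did not pass the threshold (edgeR adjusted p = 0.0506). Footprints on Mrps18c were at 26.6, 25.5 and 26.2 CPM and at 26.8, 21.5 and 24.7 CPM, which overlap (log2 fold change 0.10, edgeR adjusted p = 0.424). Mrpl47 footprints were at 33.7, 36.5 and 32.7 CPM and at 29.0, 28.6 and 29.9 CPM, a rise of 0.23 (edgeR adjusted p = 0.0394) beside the fall in its RNA.
Mrps26 and Mrpl40 had the largest footprint rise among members with at least 5 CPM, and neither had a called change in RNA. Mrps26, encoding the mitochondria-specific mS26, had footprints of 24.04, 26.6 and 22.5 CPM against 16.3, 18.7 and 13.8 CPM (log2 fold change 0.58, SE 0.12, edgeR adjusted p = 0.00392). Mrpl40 (chr16:18872018-18876862, minus strand), encoding mL40, had 45.8, 49.5 and 49.1 CPM against 31.7, 33.3 and 32.1 CPM (0.57, SE 0.07, edgeR adjusted p = 0.000198). Both had mutant libraries entirely above the controls. Mrpl23 was also called higher, from 0.264 to 0.488 CPM in controls to 0.778 to 0.973 CPM, a level of few reads.
Mrpl18 (log2 fold change 0.45), Mrpl12 (0.43) and Mrpl30 (0.40) rose as well, and of these Mrpl30 was called lower in RNA. The 4 members whose footprints fell encode small proteins, and all 4 of these proteins have bacterial counterparts, S21, L34, S6 and L36. Mrps21 had 11.7, 15.2 and 11.8 CPM against 16.7, 20.5 and 16.5 CPM, and Mrpl34 had 41.6, 47.2 and 40.01 CPM against 61.3, 64.0 and 52.9 CPM. Their log2 fold changes were -0.48 (edgeR adjusted p = 0.0186) and -0.47 (edgeR adjusted p = 0.00289), and those of Mrps6 and Mrpl36 were -0.36 and -0.33.
The counts were 12 higher and 3 lower without Pelo-/- library 1, 10 and 4 without control 1, and 14 and 3 without control 2. Mrps21 missed the threshold without Pelo-/- library 1 (edgeR adjusted p = 0.07), without Pelo-/- library 3 (0.0539) and without control 2 (0.0781), and Mrpl30 without control 1 (0.0515).

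Footprints per RNA, called translational efficiency (TE) and tested as the difference between the footprint and the RNA change in a single model, rose for 37 of the 78 members and fell for 0, beside 21.9% of all genes higher and 18.6% lower. The median was 0.34, against 0.05 for all genes, and 71 members were positive. DESeq2 called 35 higher and 0 lower. Mrpl1 rose most, by 2.04 on the log2 scale (SE 0.16, edgeR adjusted p = 2.69e-06), followed by Mrpl47 (1.55, SE 0.12), Mrps18c (1.42, SE 0.15), Mrpl13 (1.41, SE 0.14) and Mrpl42 (1.22, SE 0.16). For these 5 genes the rise was made mostly of the fall in RNA. Of the 37 members with higher TE, 20 had lower RNA and 15 had higher footprints. In 7 members the RNA fell while the footprints rose, Mrpl21, Mrpl30, Mrpl35, Mrpl42, Mrpl47, Mrps16 and Mrps28, and in Mrps21 and Mrps6 both fell. TE rose in 28 of 51 large-subunit and 9 of 26 small-subunit genes, and in 25 of 46 members with a bacterial counterpart and 12 of 31 without. The count was 23 without the first Pelo-/- RNA library. Footprints and RNA came from separate dishes and batches, and TE shares the 2 Pelo-/- RNA libraries with the RNA comparison, so the fall in RNA and the rise in TE are not independent results.

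**Figure D2:**
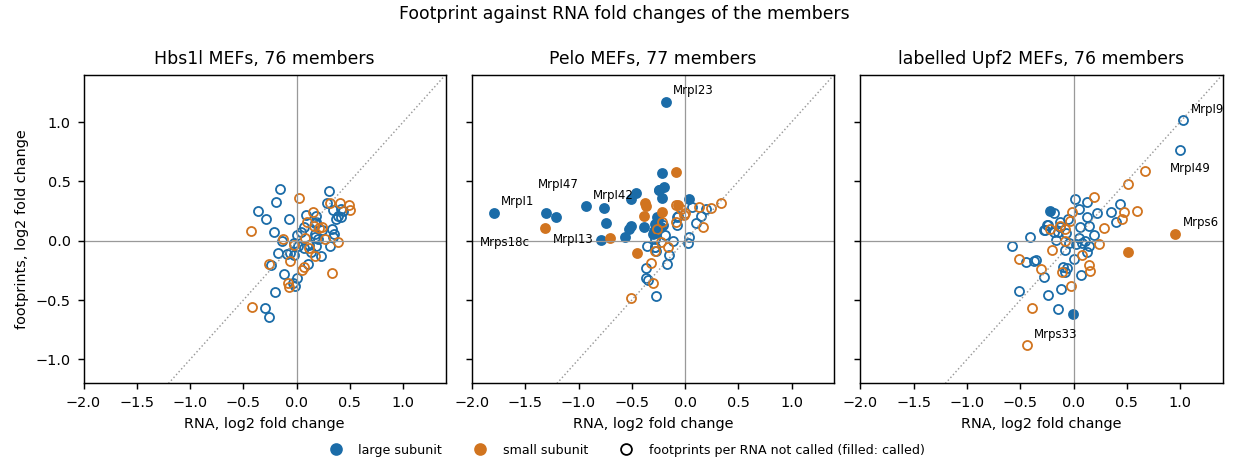
Footprint log2 fold change (vertical axis) against RNA log2 fold change (horizontal axis) for each member in Hbs1l-/- MEFs (76 members), Pelo-/- MEFs (77) and the libraries labelled Upf2 (76), with large-subunit members in blue, small-subunit members in orange, filled points for called TE and the dotted line for equal change. In the Pelo-/- panel Mrpl1 (RNA -1.80, footprints 0.24) and the other members with the largest RNA fall lie to the left near a footprint change of 0, and in the panel of the libraries labelled Upf2 Mrpl9 (1.03, 1.01) lies on the line while Mrps6 (0.96, 0.06) lies right of it.

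**Figure D3:**
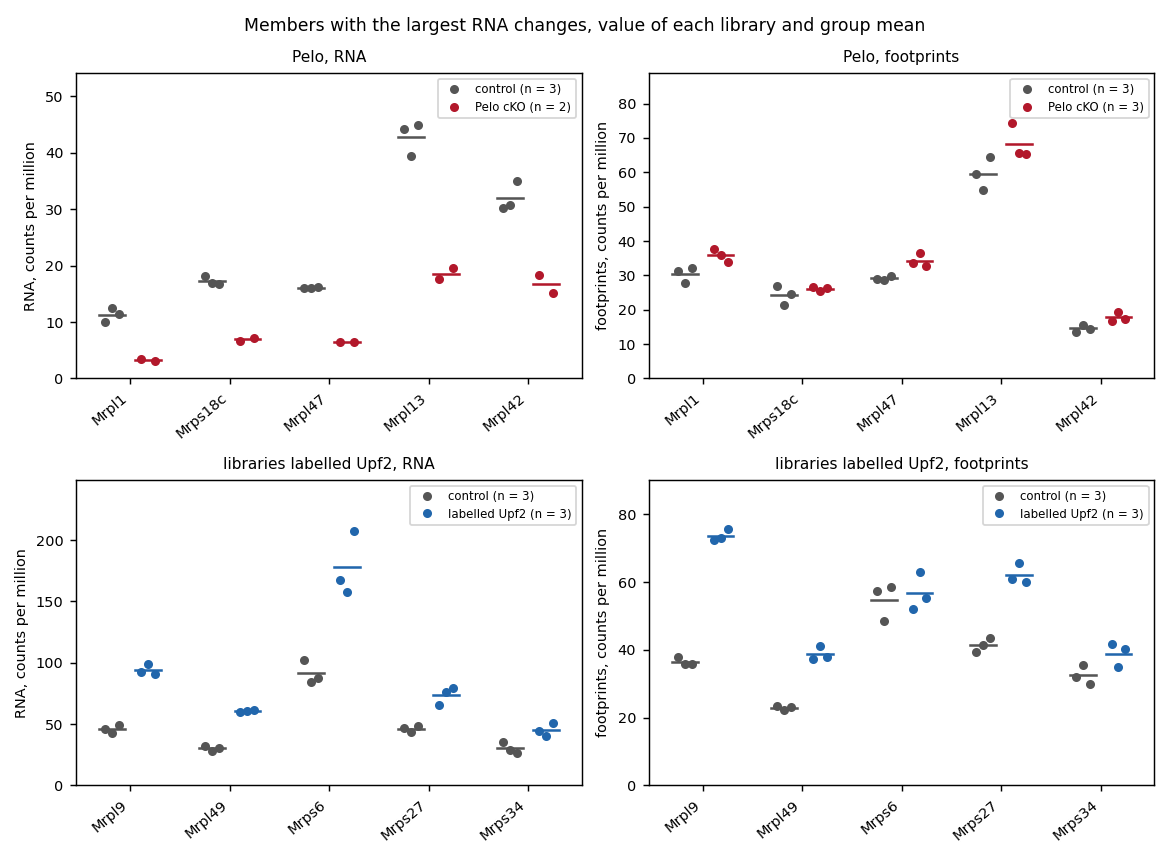
CPM of every library, mutant and control, as points for RNA and footprints, with Mrpl1, Mrps18c, Mrpl47, Mrpl13 and Mrpl42 in the Pelo-/- comparison and Mrpl9, Mrpl49, Mrps6, Mrps27 and Mrps34 in the comparison of the libraries labelled Upf2. RNA of Mrpl1 is near 3 CPM in both Pelo-/- libraries and 10.02 to 12.4 CPM in controls, while its footprints are above control level in all 3 mutant libraries.

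Other genes of mitochondrial translation were read from fixed lists beside the members. In Pelo-/- MEFs RNA fell for 2 of 5 mitoribosome proteins whose symbols lie outside the naming rule, for 4 of 11 mitochondrial translation factors, for 3 of 24 mitoribosome assembly factors (with 1 higher) and for 1 of 17 mitochondrial tRNA synthetases (with 1 higher). Their TE rose for 4 of 5, 5 of 11, 5 of 24 and 2 of 17. Against 16.6% of all genes lower in RNA and 21.9% higher in TE, the assembly factors and the synthetases lay below both shares. Other abundant protein families also had lower RNA and higher TE. RNA of cytosolic ribosomal proteins fell for 54 of 81 (median -0.40) while their TE rose for 67 of 81 (median 0.99) and their footprints for 54 of 79 (median 0.52). RNA of nuclear oxidative phosphorylation subunits, whose partners the mitoribosome makes, fell for 48 of 78 (median -0.41) and TE rose for 37 of 80, but their footprints rose for 1 and fell for 14 of 77, below the 22.9% and 21.2% of all genes. Of the 13 genes of the mitochondrial genome, RNA rose for 4 and fell for 3, beside 15.5% of all genes higher and 16.6% lower.

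HBS1L is the partner of PELO, and its loss was compared in the same way. In Hbs1l-/- MEFs footprints on 10 of 76 tested members rose and on 10 fell, beside 17.4% of all genes higher and 16.7% lower, and the median log2 fold change was 0.03. Mrpl40 had 42.3, 42.7 and 42.8 CPM in the mutant and 31.7, 33.5 and 30.6 CPM in controls, a rise of 0.42 (SE 0.08, edgeR adjusted p = 0.00192) with no overlap. Mrps22 (0.36), Mrps31 (0.32), Mrpl19 (0.31) and Mrps35 (0.31) were the other leading members, the first of these encoding mS22 of the small subunit. Mrpl34 (chr8:71464959-71465747, plus strand), which encodes bL34m, had 37.2, 39.6 and 34.7 CPM against 57.2, 63.7 and 52.1 CPM, the largest fall at -0.64 (SE 0.09, edgeR adjusted p = 0.000178).
Mrpl36 (chr13:73328513-73332178, plus strand), encoding bL36m, had 35.4, 34.7 and 39.2 CPM against 50.6, 50.2 and 47.0 CPM (log2 fold change -0.43, edgeR adjusted p = 0.00166). Mrps21 (chr3:95862634-95871519, minus strand), encoding bS21m, had 13, 12.7 and 10.1 CPM against 16.4, 19.7 and 16.6 CPM (-0.56, edgeR adjusted p = 0.00676). Mrpl41 (-0.56) and Mrps6 (-0.39) fell too, and 4 of these 5 leading members, all but Mrpl41, have coding sequences in the shortest of 3 length classes of the members. The counts were 4 higher and 9 lower without Hbs1l-/- library 1 and 5 and 4 without control 1. Mrps6 missed the threshold without Hbs1l-/- library 2 (edgeR adjusted p = 0.113) or 3 (0.0600) or control 1 (0.0506) or 3 (0.121), and Mrps35 without Hbs1l-/- library 1 (0.0684) or 3 (0.0777) or control 1 (0.0982) or 2 (0.0917).

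In RNA of Hbs1l-/- MEFs, 14 of 78 members rose and 1 fell, beside 12.7% of all genes higher and 10.4% lower, with a median of 0.09. Mrps27, encoding the mitochondria-specific mS27, was at 64.8, 60.7 and 67.5 CPM in the mutant and at 46.2, 42.6 and 47.7 CPM in controls (log2 fold change 0.50, SE 0.09, edgeR adjusted p = 0.00629), well apart. Mrps5 (0.49), Mrps30 (0.43), Mrpl4 (0.42) and Mrpl3 (0.41) followed. The member that fell was again Mrps21, at 40.7, 39.1 and 41.6 CPM against 54.3, 49.4 and 58.7 CPM (-0.42, SE 0.10, edgeR adjusted p = 0.0155). RNA and footprints moved together where both were called: Mrpl38, Mrpl4, Mrps27, Mrps30 and Mrps31 were higher in both, Mrps21 was lower in both, and 0 members had opposite calls. TE changed for 0 of 78 members by edgeR and 0 by DESeq2, beside 0.0152% of all genes in either direction, and 11 members (14.1%) had an unadjusted p under 0.05, against 16.1% of all genes, and the smallest p-values were those of Mrpl51 (0.60, edgeR adjusted p = 0.193), Mrps24 (-0.59, 0.195) and Mrpl50 (0.48, 0.198). The RNA counts were 1 higher and 1 lower without control 2, 2 and 1 without Hbs1l-/- library 3, 4 and 0 without control 3 and 6 and 1 without Hbs1l-/- library 1. Only Mrps27 of the members named here kept its call in all 6 of these fits, the call of Mrps21 being lost without control 3 (edgeR adjusted p = 0.0587) and without Hbs1l-/- library 2 (0.0525).

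In the libraries labelled Upf2 the members that rose most in both RNA and footprints were Mrpl9 and Mrpl49. Mrpl9 (chr3:94443318-94451130, plus strand) encodes bL9m, and its RNA was at 92.7, 99.3 and 90.5 CPM against 46.1, 43.0 and 49.0 CPM in controls. Its footprints were at 72.5, 73.1 and 75.7 CPM against 37.9, 35.9 and 35.7 CPM. RNA and footprints thus rose alike, by 1.03 (SE 0.10, edgeR adjusted p = 8.87e-05) and 1.01 (SE 0.07, edgeR adjusted p = 2.69e-06) on the log2 scale.
Mrpl49 (chr19:6053622-6057785, minus strand) encodes mL49. Its RNA was at 59.9, 60.3 and 61.4 CPM against 32.3, 27.7 and 30.7 CPM, and its footprints were at 37.4, 41.0 and 37.8 CPM against 23.4, 22.3 and 23.2 CPM. The log2 fold changes were 1.00 (SE 0.11, edgeR adjusted p = 0.000141) and 0.76 (SE 0.08, edgeR adjusted p = 4.37e-05), without overlap of the groups.
Mrps27 (chr13:99344786-99415562, plus strand) had RNA of 65.7, 75.9 and 79.8 CPM against 46.9, 43.3 and 48.3 CPM and footprints of 60.9, 65.7 and 60.0 CPM against 39.4, 41.5 and 43.6 CPM. It rose by 0.68 in RNA (SE 0.11, edgeR adjusted p = 0.00219) and by 0.59 in footprints (SE 0.08, edgeR adjusted p = 0.000109).
Mrps6 (chr16:92058270-92112227, plus strand), encoding bS6m, rose in RNA without a rise in footprints. Its RNA was at 168, 158 and 207 CPM against 102, 84.5 and 87.8 CPM, and its footprints at 52.1, 62.9 and 55.3 CPM against 57.3, 48.6 and 58.5 CPM. The RNA groups were apart (log2 fold change 0.96, SE 0.13, edgeR adjusted p = 0.000634) and the footprint groups overlapped (0.06, edgeR adjusted p = 0.644). Slc5a3, a transporter gene whose transcripts share the locus and strand of Mrps6, rose by 0.66 in RNA (edgeR adjusted p = 0.0226) and by 0.35 in footprints (edgeR adjusted p = 0.000605), and the division of reads between the 2 genes was not tested.

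Over all members of the libraries labelled Upf2, footprints rose on 15 of 76 and fell on 14, beside 22.3% of all genes higher and 21.1% lower, with a median log2 fold change of 0.04, while DESeq2 called 8 and 8. RNA rose for 11 of 78 and fell for 4, beside 13.2% higher and 6.76% lower, with a median of -0.04. In both layers Mrpl12, Mrpl45, Mrpl49, Mrpl9, Mrps18b, Mrps26 and Mrps27 were higher and Mrps21 lower. Mrps34 rose in RNA from 35.5, 28.6 and 26.1 CPM to 44.4, 40.6 and 50.6 CPM (log2 fold change 0.59, SE 0.14, edgeR adjusted p = 0.0171), as did Mrps10 (0.51, edgeR adjusted p = 0.00771). Gene totals add up all transcripts, also those that retain an intron, some of which rose in both genes as described below. The same totals form the RNA side of TE. The largest footprint fall was that of Mrps33, to 5.92, 6.18 and 5.10 CPM from 12.1, 7.58 and 12.2 CPM (-0.88, SE 0.21, edgeR adjusted p = 0.00568), and Mrpl34 (-0.61), Mrpl57 (-0.58), Mrps21 (-0.56) and Mrpl41 (-0.46) followed. RNA fell for Mrps18c (-0.52), Mrpl52 (-0.45), Mrps36 (-0.43) and Mrps21 (-0.39, edgeR adjusted p = 0.0495). None of these 4 RNA calls was stable: each was lost in at least 5 of the 6 fits that left out a library. TE rose for 1 member, Mrpl24 (0.47, edgeR adjusted p = 0.0257), and fell for 3, Mrps6 (-0.91, SE 0.18, edgeR adjusted p = 0.00378), Mrpl34 (-0.63, edgeR adjusted p = 0.041) and Mrps10 (-0.62, edgeR adjusted p = 0.0123), beside 7.60% and 10.4% of all genes.
Without a library the footprint counts were lowest at 7 higher and 8 lower (control 1), and were 10 and 8, 8 and 11, and 8 and 10 without mutant library 1, 2 and 3. The RNA counts were 8 and 0, 5 and 0 and 6 and 0 without control 1, 2 and 3, and 8 and 0 and 9 and 0 without mutant library 2 and 3. Mrps34 RNA missed the threshold without control 2 (edgeR adjusted p = 0.0705) or 3 (0.0776). The TE counts were 0 and 2 without mutant footprint library 1 or 2, footprint control 2 or RNA control 3, and 1 and 6 without RNA control 1, and the calls of Mrpl24 and Mrpl34 were among those lost.

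Transcripts of a gene can differ in their fate, and those with a stop codon well upstream of the last exon junction are annotated as NMD targets. Of the member transcripts with an NMD annotation and a sequence, 24 of 24 had their stop more than 50 bases before the last junction, and 0 of 145 protein-coding ones did. These counts follow from how the annotation is assigned and are no separate result. The stops of an NMD transcript and of the main transcript of the same gene are shown for the 2 genes whose NMD transcript rose, 12 bases on each side with the stop codon in capitals (GRCm38, coding strand).
Mrpl4-201: agtgacttccccTAAccctgccctggt
Mrpl4-208: ccagaccagcggTGAcaccaacacctc
Mrps11-201: gctcgaaggctgTGAcgggaagggagc
Mrps11-205: agtcgcttcaggTGAggcctttaccct
Mrpl4-201 ends after 294 codons at chr9:21008637-21008639, in its last exon, whereas Mrpl4-208 ends after 160 codons at chr9:21007399-21007401, 139 bases before the last junction. Mrps11-201 ends after 191 codons at chr7:78792747-78792749 and Mrps11-205 after 58 codons at chr7:78783682-78783684, 297 bases before the last junction.

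In the libraries labelled Upf2, 20 of 241 tested member transcripts rose and 2 fell, beside 4.37% of all transcripts higher and 0.985% lower, while DESeq2 called 37 and 12, beside 13.9% of all transcripts in either direction. By annotation, 2 of 23 NMD transcripts rose, against 14.7% of all NMD transcripts, 6 of 46 retained-intron transcripts (4.86%), 5 of 30 processed transcripts (5.59%) and 7 of 142 protein-coding transcripts (2.99%). The median NMD transcript had a log2 fold change of 0.82 in members and 0.88 over all genes, and the median protein-coding transcript -0.12 and -0.09.
Mrpl4-208 was at 2.22, 3.24 and 3.25 TPM in the libraries labelled Upf2 and at 0.506, 0.700 and 0.438 TPM in controls (log2 fold change 2.42, SE 0.37, edgeR adjusted p = 0.0189). Mrps11-205 was far more abundant, at 23.7, 27.3 and 27.4 TPM against 13.95, 10.7 and 11.3 TPM (1.09, SE 0.20, edgeR adjusted p = 0.0344), and its share of all Mrps11 TPM was 50.4% against 33.1%. In both transcripts the groups were apart.
Among the called NMD and retained-intron transcripts the largest rise was that of Mrps34-202, which retains an intron. It was at 21.2, 18.7 and 19.9 TPM against 3.10, 3.53 and 2.76 TPM (2.65, SE 0.18, edgeR adjusted p = 0.00179) and went from 8.16% to 34.9% of Mrps34 TPM. The total Mrps34 RNA includes this transcript, so its rise given above is not a separate result. Mapk8ip3, which overlaps Mrps34 on the opposite strand, rose by 0.99 in RNA in the same libraries (edgeR adjusted p = 0.000336), and the division of reads between these genes was not tested. The retained-intron transcripts Mrpl38-205 (2.59, SE 0.32, edgeR adjusted p = 0.0107), Mrps11-202 (2.56, edgeR adjusted p = 0.0338), Mrpl38-203 (2.33, edgeR adjusted p = 0.0385) and Mrps10-206 (1.94, edgeR adjusted p = 0.0197) rose from levels at or below 1.13 TPM.
Mrps6-202, a processed transcript, was listed at 0 in the 3 controls and at 4.07, 5.03 and 5.65 TPM in the libraries labelled Upf2, at least 24-fold higher when each control is set to a floor of 3 counts. Mrpl28-206, an NMD transcript chosen after its values were seen, was at 9.11, 6.53 and 9.08 TPM against 0, 0 and 0.574 TPM and did not pass the threshold (edgeR adjusted p = 0.0535). NMD transcripts made up 5.66% ± 0.14 of member TPM in controls (n = 3), 6.46% ± 0.20 in the libraries labelled Upf2 (n = 3), 6.26% ± 0.14 in Hbs1l-/- (n = 3) and 5.28% ± 0.18 in Pelo-/- MEFs (n = 2). Levels of transcripts of a gene are estimates of the authors that divide shared reads.
The transcript counts depended on single libraries, being 8 and 0, 5 and 0 and 8 and 1 without mutant library 1, 2 and 3, and 10 and 1 and 7 and 0 without control 1 and 2. The calls of Mrpl4-208, Mrps11-202 and Mrpl38-203 were lost in all 6 of these fits. In Pelo-/- MEFs 0 of 211 member transcripts rose and 7 fell, beside 0.722% and 1.64% of all transcripts, with 28 lower by DESeq2 (16.05% of all transcripts in either direction), among the 7 the main transcripts Mrps18c-201 (-1.26, edgeR adjusted p = 0.0343), Mrpl47-201 (-1.22, edgeR adjusted p = 0.0343) and Mrpl13-205 (-1.26, edgeR adjusted p = 0.0385), and 0 remained called without any 1 library. In Hbs1l-/- MEFs 0 of 220 passed by edgeR, beside 1.31% of all transcripts, 35 (15.9%) had an unadjusted p under 0.05, against 17.7% of all transcripts, and DESeq2 called 17, beside 14.1% of all transcripts to which it gave an adjusted p. The smallest p-values were those of Mrps27-201 (0.50, edgeR adjusted p = 0.0538), Mrps21-201 (-0.52, 0.0639) and Mrps5-206 (0.63, 0.0705).

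**Figure D4:**
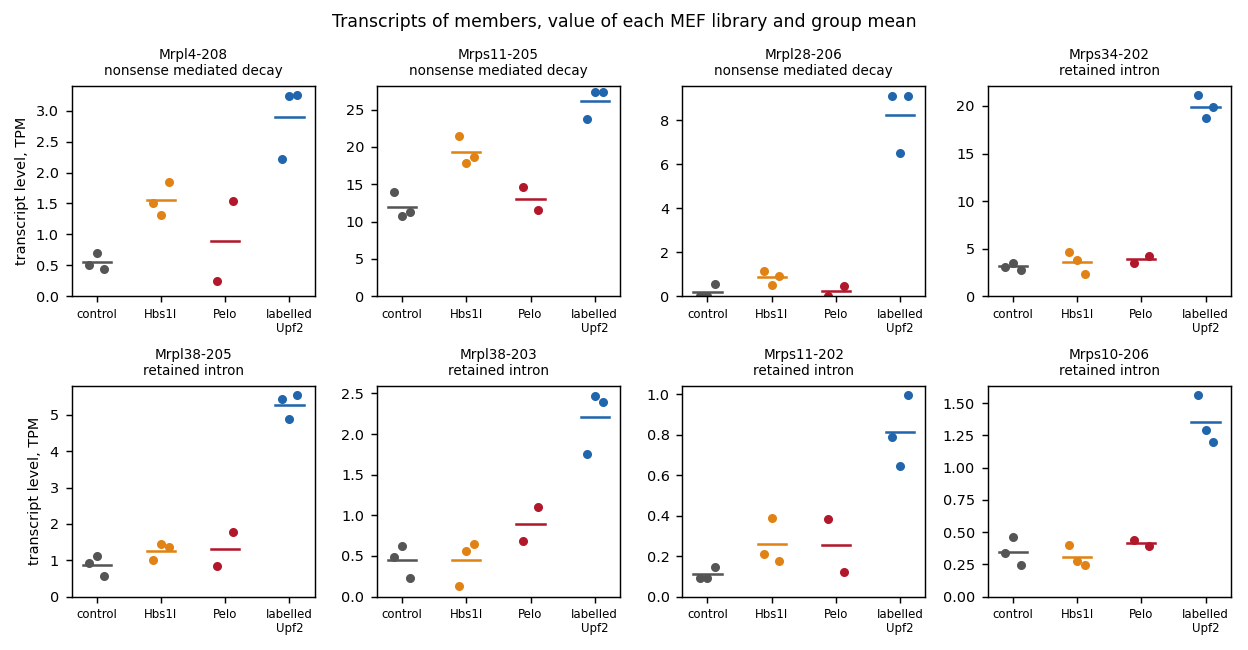
TPM of 8 member transcripts in every RNA library, with 1 point per library, for control, Hbs1l-/-, Pelo-/- and the libraries labelled Upf2. Mrps34-202 lies at 18.7 to 21.2 TPM in the libraries labelled Upf2 and below 5 TPM in all others.

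Across the 3 MEF comparisons footprints on Mrpl38, Mrpl40, Mrps27 and Mrps30 rose and those on Mrpl34, Mrpl36 and Mrps21 fell each time, with control libraries that are not independent. These 4 and 3 of 76 members stand beside 9.63% of all genes higher and 9.65% lower in all 3 comparisons, so fewer members than the share of all genes were called each time, with no test of that difference. RNA of Mrps21 was the only one called lower in all 3 comparisons, and 0 members were higher in RNA in all 3, beside 1.41% of all genes lower and 1.18% higher. The difference between mutants was tested as a difference of the footprint effects. Between Pelo-/- and Hbs1l-/- it passed for 0 of 76 members by edgeR and 0 by DESeq2, beside 5.55% of all genes in either direction, 10 members (13.2%) had an unadjusted p under 0.05, against 19.3% of all genes, and 58 members were more positive in Pelo-/-. The smallest p-values were those of Mrps7 (0.43, edgeR adjusted p = 0.0689), Mrpl30 (0.46, 0.0954) and Mrpl55 (0.40, 0.155). Control libraries with the same number are near-identical between these batches and entered as separate, and with the replicate number as a block the test passed for 2 members, both more positive in Pelo-/-. When the mutants were compared directly, with each batch's controls left out, 7 of 77 members were higher in Pelo-/- and 0 lower, near the 9.53% of all genes higher, beside 6.10% lower. In that fit genotype and batch cannot be told apart. Leaving out Pelo-/- library 1 from the test of effects gave 1 member.
Between the libraries labelled Upf2 and Hbs1l-/- it passed for 3 higher and 0 lower, beside 2.88% and 2.05% of all genes, namely Mrpl49 (0.86, SE 0.14), Mrpl9 (0.81, SE 0.09) and Mrps7 (0.49, SE 0.13), while DESeq2 called 3 and 2. Between the libraries labelled Upf2 and Pelo-/- it passed for 3 higher and 5 lower, beside 6.18% and 6.82%, with Mrpl9 (0.80, SE 0.11), Mrpl49 (0.71, SE 0.11) and Mrps27 (0.35, SE 0.10) higher and Mrpl42 (-0.72, SE 0.19), Mrpl21 (-0.52, SE 0.15) and Mrps16 (-0.50, SE 0.15) lowest. Mrpl9 and Mrpl49 kept these calls in every fit that left out a library. Compared directly without controls, the libraries labelled Upf2 had 6 members higher and 4 lower than Hbs1l-/-, beside 9.13% and 7.20% of all genes, and 5 higher and 15 lower than Pelo-/-, beside 12.8% and 13.9%, again with batch and genotype not separable. The counts of 3 and 5 became 2 and 0 without control 1 of the Pelo batch, 2 and 2 without control 1 of the batch labelled Upf2, 3 and 2 without Pelo-/- library 1 and 2 and 3 without Pelo-/- library 2 or library 2 labelled Upf2.
In RNA the mutants were compared directly within their batch. RNA of 38 members was lower and of 1 higher in Pelo-/- than in Hbs1l-/- MEFs, beside 16.3% and 18.9% of all genes, with Mrpl1 (-1.39, SE 0.27), Mrpl13 (-1.1, SE 0.15) and Mrpl47 (-1.08, SE 0.21) leading and Mrps2 higher (0.31, SE 0.10). The call of Mrps2 was lost without either Pelo-/- library (edgeR adjusted p = 0.194 and 0.28) and without Hbs1l-/- library 2 (0.094) or 3 (0.108). The counts were 16 and 13 lower without the first and the second Pelo-/- library. Against Hbs1l-/-, the libraries labelled Upf2 had 6 higher and 11 lower members, beside 16.1% and 11.1%, led by Mrpl49 (1.07, SE 0.10) and Mrps6 (1.03, SE 0.13) and by Mrpl42 (-0.55, SE 0.16) and Mrps5 (-0.52, SE 0.11). The call of Mrpl42 was lost without library 2 or 3 labelled Upf2 (edgeR adjusted p = 0.0622 and 0.0535) and without Hbs1l-/- library 2 or 3 (0.0674 and 0.0945). Those counts were 5 and 5 without library 2 labelled Upf2, 4 and 7 without Hbs1l-/- library 2 and 4 and 3 without Hbs1l-/- library 3. Against Pelo-/-, they had 20 higher and 0 lower, beside 15.4% and 13.5%, led by Mrps6 (1.23, SE 0.13) and Mrpl1 (1.19, SE 0.28). That count was 7 and 5 without the first and the second Pelo-/- library, and the call of Mrpl1 was lost without either (edgeR adjusted p = 0.0534 and 0.081). The difference in TE between genotypes was not tested.

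Most members whose footprints fell were short. With the members split by coding length into 261 to 501, 513 to 762 and 774 to 1368 bases, footprints in Hbs1l-/- MEFs fell on 8 of 25, 1 of 25 and 1 of 26 and rose on 0, 2 and 8. In the libraries labelled Upf2 they fell on 12, 1 and 1 and rose on 1, 7 and 7 of 25, 25 and 26. In Pelo-/- MEFs they fell on 4, 0 and 0 and rose on 3, 10 and 10 of 25, 26 and 26. Among all genes of 261 to 501 bases, footprints fell on 31.2% in Hbs1l-/- and 33.0% in the libraries labelled Upf2, more than among longer genes, and on 22.9% in Pelo-/-, about as in the other classes, so the 8 of 25 and 4 of 25 members lie near or below these shares and the 12 of 25 above, with no test of that difference. In the middle and longest classes all genes fell in 25.4% and 17.1% of cases in Hbs1l-/-, 22.9% and 21.4% in Pelo-/- and 26.5% and 22.1% in the libraries labelled Upf2, above the member counts of 1 or 0 in each class. All genes rose, from the shortest class to the longest, in 6.04%, 7.07% and 13.4% of cases in Hbs1l-/-, 20.5%, 19.2% and 23.0% in Pelo-/- and 12.7%, 16.6% and 20.2% in the libraries labelled Upf2, and the member counts in the longest class lay above these shares in all 3. These differences from all genes were not tested. Across members the Spearman correlation of footprint fold change with coding length was 0.61 in Hbs1l-/-, 0.48 in Pelo-/- and 0.50 in the libraries labelled Upf2, and across all genes 0.23, 0.03 and 0.13. In RNA it was 0.53, 0.53 and 0.18 in members and -0.01, 0.25 and -0.03 over all genes. The correlations over all genes take in every coding length and those of members only 261 to 1368 bases, so they do not cover like ranges. The 12 members lower in Pelo-/- RNA among the 26 shortest, the 8 among the middle 26 and the 4 among the 26 longest stand beside 35.6%, 24.2% and 17.4% of all genes of these lengths. These points share libraries and controls, and genes are not replicates.

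**Figure D5:**
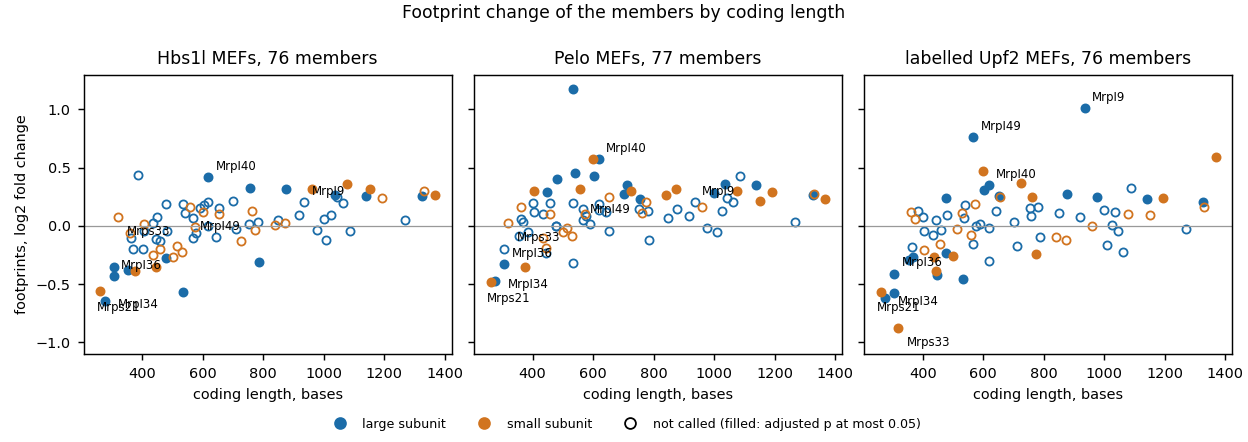
Footprint log2 fold change of each member (vertical axis) against its coding length in bases (horizontal axis) in the 3 MEF comparisons, large-subunit members in blue and small-subunit members in orange, filled where the adjusted p is at most 0.05. Mrps21 and Mrpl34, near the short end, lie below 0 in all 3 panels.

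In the mutant embryos 2 of 77 tested members fell and 0 rose, beside 0.955% of all genes lower and 0.920% higher, with 21 members (27.3%) and 18.6% of all genes at an unadjusted p under 0.05, a median log2 fold change of -0.14 and 18 positive members. Mrpl36 had 71.4, 62.2 and 64.6 CPM in Hbs1l -/- embryos and 109, 98.9 and 104 CPM in Wildtype, apart from each other (-0.65, SE 0.15, edgeR adjusted p = 0.0483). Mrpl23 had 1.84, 0 and 2.18 CPM against 6.72, 9.63 and 9.56 CPM (-2.66, SE 0.62, edgeR adjusted p = 0.0457), from few reads and with the shared sequence given above. Neither call held when any library other than Hbs1l -/- library 1 was left out, each of these 5 fits giving 0 members, while leaving out that library gave 4 higher and 20 lower. Markers of other tissues moved with genotype in these libraries: 9 of the 10 trophoblast markers were detected in the mutants (Prl3b1 at 0), with sums of 347 to 1349 CPM against 54.6 to 67.2 CPM, and the 6 markers of the E8.5 embryo summed to 3353 to 8048 against 12834 to 16678 CPM. The muscle markers (420 to 690 against 1167 to 1239 CPM), the erythroid (55.4 to 97.4 against 162 to 212 CPM), the chondrocyte (38.9 to 109 against 181 to 225 CPM) and the fibroblast markers (558 to 751 against 784 to 903 CPM) were also lower, and the endothelial (270 to 490 against 236 to 256 CPM) and epithelial markers (774 to 914 against 574 to 626 CPM) higher. The part of these in the member values was not tested.
In the cerebellum 0 of 78 members changed by edgeR and 0 by DESeq2, beside 0.0624% of all genes in either direction, 2 members (2.56%) had an unadjusted p under 0.05, against 13.4% of all genes, and the median was -0.03. The smallest p-values were those of Mrpl41 (-0.32, edgeR adjusted p = 0.335), Mrps25 (-0.26, 0.339) and Mrps15 (0.23, 0.42). The 3 granule progenitor markers summed to 118 to 165 CPM in mutant and 55.7 to 60.9 CPM in control cerebella, the 7 cerebellum markers to 6155 to 7163 and 8803 to 9162 CPM, and the 5 macrophage markers to 132 to 144 and 102 to 120 CPM, none of these overlapping, and their part in the member values was not tested. The difference between the embryo and the cerebellum effect passed for 0 of 78 members by edgeR and 0 by DESeq2, beside 0.732% of all genes, and 10 members (12.8%) had an unadjusted p under 0.05, against 15.7% of all genes, the smallest p-values being those of Mrps34 (-0.56, edgeR adjusted p = 0.207), Mrps24 (-0.88, 0.213) and Mrpl20 (-0.60, 0.216). Leaving out Hbs1l -/- embryo library 1 gave 2 higher and 4 lower.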

How the data were processed

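Footprint values were gene counts as deposited. According to the study's methods, the authors clipped adapters, removed rRNA reads with Bowtie2 2.2.3 and aligned to mm10 with HISAT2 2.1.0. They counted reads on coding sequences with featureCounts. Before sequencing, a narrower length range of RNA fragments was taken from the gel for cerebella than for embryos and MEFs. RNA values were estimated counts and TPM per transcript that the authors computed with kallisto 0.42.4. For gene-level tests the estimated counts of all transcripts of a gene were added up and rounded to whole numbers. The 100 histone genes were left out of footprint and TE fits. CPM were computed per comparison with edgeR's normalisation factors. Tests used edgeR 4.0.16 (quasi-likelihood, low counts filtered, Benjamini-Hochberg over all genes, SE from the F statistic) in R 4.3.3, with DESeq2 1.42.0, other normalisation, no filter, a replicate block and leaving out each library as alternatives, checked on simulated counts. Intervals of counting error do not apply, since replicates set the errors. The members and gene lists were chosen with earlier results of these data known. Named members have an adjusted p of at most 0.05, groups that do not overlap and a mean of at least 5 CPM. Of these, up to 5 each way with the largest change are named per comparison. Where none passed, those with the 3 smallest p-values are named. Mrpl23 in embryos is named as a called member although its printed values average just below 5 CPM, with only the control libraries above that level. Coordinates and coding lengths are those of Gencode M21 on GRCm38. In all, 42 members overlap another gene, 36 of them on the opposite strand, and use of strand in footprint counting is not given in the sources used here.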

Additional observations from a re-analysis of the deposited data

Results flagged for a closer look

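The effects of 2 mutants on the footprints of a member differed by a test of the difference itself in 11 cases, all involving the libraries labelled Upf2, whose Upf2 values went against the label. The 3 members higher and 0 lower against Hbs1l-/- stand beside 2.88% and 2.05% of all genes, and the 3 higher and 5 lower against Pelo-/- beside 6.18% and 6.82%, with no test of a difference from all genes. All values are log2 differences of the footprint effect. Against Hbs1l-/- the difference was 0.86 for Mrpl49 (edgeR adjusted p = 0.00193), 0.81 for Mrpl9 (edgeR adjusted p = 0.000111) and 0.49 for Mrps7 (edgeR adjusted p = 0.0414). Against Pelo-/- it was 0.80 for Mrpl9 (edgeR adjusted p = 0.000287), 0.71 for Mrpl49 (edgeR adjusted p = 0.00103) and 0.35 for Mrps27 (edgeR adjusted p = 0.0321). Against Pelo-/- it was negative for Mrpl42 (-0.72, edgeR adjusted p = 0.0216), Mrpl21 (-0.52, edgeR adjusted p = 0.0339), Mrps16 (-0.50, edgeR adjusted p = 0.0382), Mrps15 (-0.45, edgeR adjusted p = 0.0267) and Mrps2 (-0.45, edgeR adjusted p = 0.0189). Mrpl9 and Mrpl49 kept both calls whichever library was left out. The calls of Mrps7, Mrps27, Mrpl21, Mrps15 and Mrps16 were lost in 7 or more of the 12 fits without a library, and those of Mrpl42 and Mrps2 in 1, without control 1 of the Pelo batch. These fits count near-identical control libraries of different batches as separate.

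RNA levels of mutants, compared directly within 1 batch, differed for 39 members between Pelo-/- and Hbs1l-/- MEFs, for 20 between the libraries labelled Upf2 and Pelo-/-, and for 17 between the libraries labelled Upf2 and Hbs1l-/-. By direction, the 1 higher and 38 lower of the first stand beside 18.9% and 16.3% of all genes, the 20 higher and 0 lower of the second beside 15.4% and 13.5%, and the 6 higher and 11 lower of the third beside 16.1% and 11.1%. Only 2 Pelo-/- RNA libraries enter the first and second of these counts, which became 13 and 5 without the second of them.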

How the results depend on the processing

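No named member's direction was reversed under any alternative, and of their values without 1 library 658 stayed on the same side of the threshold, 156 lost it and 2 gained it. The ranges of members called without 1 library were 0 to 24 (embryo, 2 with all), 0 to 0 (cerebellum), 9 to 17, 14 to 23 and 15 to 25 (footprints in Hbs1l-/-, Pelo-/- and labelled Upf2; 20, 27 and 29 with all), 2 to 11, 8 to 36 and 5 to 17 (their RNA; 15, 24 and 15) and 0 to 0, 23 to 40 and 2 to 7 (their TE; 0, 37 and 4). For differences of footprint effects they were 0 to 1 (Pelo minus Hbs1l), 2 to 4 (Upf2 minus Hbs1l), 2 to 10 (Upf2 minus Pelo) and 0 to 6 (embryo minus cerebellum), for RNA between mutants 13 to 42, 7 to 16 and 5 to 28, and for transcripts 0 to 0, 0 to 0 and 5 to 15. Counts fell in most fits with a library fewer, which have fewer degrees of freedom.
Replicate numbers met the criterion for pairing in none of the 11 comparisons checked, which leave out TE and differences of effects; in the latter they link near-identical control libraries of different batches but not the mutants. With the replicate block the counts were 6 (embryo), 17 (labelled Upf2 footprints), 13 (Pelo RNA), 2 (Pelo minus Hbs1l), 18 (RNA, Pelo against Hbs1l), 10 (RNA, Upf2 against Hbs1l) and 0 and 0 (transcripts in Pelo and labelled Upf2); the other counts moved by less than 1.5 times.
With no filter on low counts the embryo gave 6. DESeq2 gave 16 for the labelled Upf2 footprints, 5 for Upf2 minus Hbs1l, and 17, 28 and 49 for transcripts in Hbs1l, Pelo and labelled Upf2. Transcripts with a mean of at least 1 TPM gave 4 in Hbs1l and 11 in Pelo. Mutants compared directly gave 7, 10 and 20 for the 3 footprint differences. Summed member TPM of protein-coding transcripts alone was 3953 (control), 4245 (Hbs1l), 3528 (Pelo) and 3952 (labelled Upf2). The member share outside mitochondrially encoded genes was 0.283% in Pelo RNA and 0.335% in Pelo footprints. The cause of these shifts was not tested. The shallowest footprint library was an embryo library, and Mrps36 and Mrpl23 had too few footprints to be tested in several comparisons.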
